A study of Mus musculus with 4 samples.

Results

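The subject is the amino acid transporter families in cultured oesophageal cells that carry the E79Q substitution of NRF2, set against wild-type cells. Members were all genes of the deposited table named Slc1a, Slc7a, Slc36a, Slc38a or Slc43a with a number, plus Slc3a1 and Slc3a2, and without the cystine carrier gene Slc7a11. This gave 43 of 24444 genes. Of these, 41 encode carriers or their heavy chains, and the other two (Slc36a1os and Slc7a6os) are opposite-strand genes that only share the name. Poly(A) RNA was sequenced from 2 libraries labelled Nrf2_HET, whose cells carry Nfe2l2-E79Q made by CRISPR/Cas9 microinjection, and from 2 libraries labelled Nrf2_WT, which carry no cassette and had no treatment. All 4 come from the strain C57BL/6J, and every column name carries the word SV40, which the labels do not explain. The series title speaks of a conditional mouse, but the promoter or Cre that turns the allele on, the age of the animals and the number of cultures or animals behind the 2 replicates are stated in none of the labels. The p-values therefore rest on the spread between these libraries, mostly pooled over genes. This spread may be technical. The comparison asks which transporter transcripts differ between E79Q and wild-type cells.

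Amino acids cross the plasma membrane through carriers that differ in charge preference and in what they couple to. Slc1a carriers use sodium, and they split into acidic carriers for glutamate and aspartate and neutral exchangers for alanine, serine, cysteine and glutamine. Slc7a proteins are either cationic carriers that stand alone or light chains that must pair with a heavy chain, Slc3a1 or Slc3a2, to reach the membrane. Slc38a proteins take up glutamine and other small neutral amino acids with sodium. Slc36a proteins are mostly driven by protons and act partly on lysosomes. Most Slc43a proteins carry large neutral amino acids without an ion. NRF2 is the transcription factor that drives antioxidant genes. Its known link to this transport is Slc7a11, which imports cystine for glutathione synthesis in exchange for glutamate and uses Slc3a2 as its heavy chain. Several of these carrier genes are also known targets of ATF4, the factor induced by amino acid shortage.

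The carriers called higher in E79Q cells included the most abundant of the set, and a second group of carriers was lower. The neutral exchangers Slc1a4 and Slc1a5, the heavy chain Slc3a2, the light chain Slc7a5, the arginine and lysine carrier Slc7a1 and the system A carrier Slc38a2 rose by 0.14 to 0.62 on the deposited log2 scale. The system A carrier Slc38a1, the acidic carrier Slc1a1, the proton-coupled carrier Slc36a1 and both tested Slc43a genes fell by 0.19 to 0.42. In these bulk samples, fewer cells of a type and less RNA per cell cannot be told apart.

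Of the 41 carriers, 31 lay above the floor of the table in at least 1 library and 10 lay at the floor in all 4. The floor, 6.98, is the deposited value of a gene with no reads. A carrier was tested where 2 or more libraries exceeded the table's minimum by 1 log2 unit, which left 19. Of these 19, 18 passed in all 4 libraries, among them each of the 11 called, so no call rests on a gene admitted by a single genotype. The test was limma with genotype and replicate number, two-sided, with Benjamini-Hochberg adjustment over all 10857 genes tested and a call at an adjusted p under 0.05. In all, 11 carriers (57.9%) were called, 6 higher (31.6%) and 5 lower (26.3%) in E79Q. Over all tested genes 40.4% were called, with 21.5% higher and 18.9% lower. The median difference of the 19 carriers was -0.032, against 0.0062 over all tested genes, and the median absolute difference was 0.19, against 0.12. The groups did not overlap in 14 of the 19 (73.7%), against 79.2% of all tested genes, so separation of the libraries was no more frequent in the set than in the table. Differences are E79Q minus wild type over 2 replicate pairs. Their SE is moderated by limma and draws mainly on the spread pooled over genes (14.6 prior degrees of freedom against 1 residual). It is not the spread of a gene's own 2 pairs. An exact test of 2 pairs cannot give a two-sided p below 0.5, so every call draws on the spread pooled over genes.

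**Figure D1:**
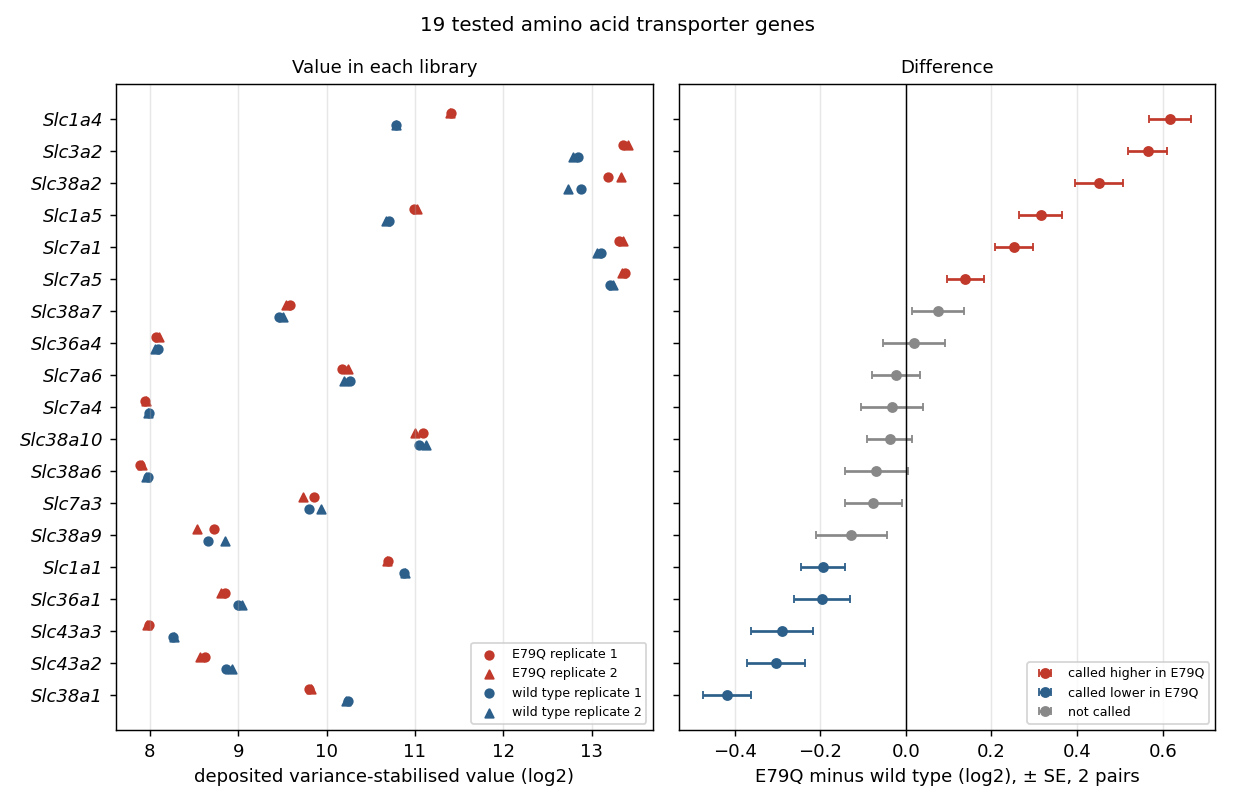
Left, deposited variance-stabilised value (log2) of the 19 tested carriers in each library, with circles for replicate 1 and triangles for replicate 2. Right, E79Q minus wild type with its SE as moderated by limma (2 pairs). The 6 genes called higher reach 0.62 and the 5 called lower reach -0.42, and the genes called higher sit mostly at the right of the level scale.

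Promoters of the called carriers are shown to place these genes beside the motifs through which NRF2, ATF4 and E-box factors are known to bind. RefSeq promoters (GRCm38.p6, 250 bases before to 50 after the start) were present for 30 carriers, 7 of them called. Both strands were searched for TGACNNNGC, the core of the antioxidant response element bound by NRF2 with small MAF proteins, for TGATGNAAN, the amino acid response element bound by ATF4 with C/EBP proteins, and for CACGTG, the E-box. The lines give 120 bases before to 10 after the start, with matches in capitals, for each called carrier with a match and for Slc3a2, the heavy chain, which has none.
Slc1a4, chr11:20332704-20332833, minus strand: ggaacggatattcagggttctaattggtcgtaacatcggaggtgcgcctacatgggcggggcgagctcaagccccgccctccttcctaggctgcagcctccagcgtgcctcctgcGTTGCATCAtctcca
Slc7a1, chr5:148399895-148400024, minus strand: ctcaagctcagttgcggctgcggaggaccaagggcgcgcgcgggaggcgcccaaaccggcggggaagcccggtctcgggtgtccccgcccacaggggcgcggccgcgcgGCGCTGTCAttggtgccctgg
Slc38a2, chr15:96699719-96699848, minus strand: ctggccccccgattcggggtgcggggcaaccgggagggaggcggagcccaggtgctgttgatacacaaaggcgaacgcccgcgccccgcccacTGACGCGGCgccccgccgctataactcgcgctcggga
Slc3a2, chr19:8713888-8714017, minus strand: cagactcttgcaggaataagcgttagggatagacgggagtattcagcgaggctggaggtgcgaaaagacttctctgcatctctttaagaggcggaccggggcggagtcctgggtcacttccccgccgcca
Slc36a1, chr11:55204220-55204349, plus strand: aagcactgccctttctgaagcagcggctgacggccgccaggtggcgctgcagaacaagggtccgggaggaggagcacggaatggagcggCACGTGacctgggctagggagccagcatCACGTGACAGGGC
The Slc1a4 match is the amino acid response element on the opposite strand, beginning 5 bases before the start. The Slc7a1 and Slc38a2 matches are antioxidant response element cores that begin 11 and 27 bases before the start, in Slc7a1 on the opposite strand. Slc36a1, which was lower in E79Q, holds E-boxes that begin 31 and 3 bases before the start, and the second of them shares its last bases with an antioxidant response element core.

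Among the carriers with a promoter entry, the antioxidant core stood in 2 of 4 genes called higher and in 1 of 3 called lower, and in 14.0% of all 27025 genes with a promoter. The amino acid response element stood in 1 of 4 called higher and 0 of 3 called lower, against 4.50% of all genes. The E-box stood in 0 of 4 called higher and 1 of 3 called lower, against 8.09% of all genes. Of the 23 other carriers with an entry, the antioxidant core was found in Slc7a6 and Slc43a1, the amino acid response element in Slc7a7, and the E-box in 6, which are Slc38a7 and the untested Slc1a6, Slc1a7, Slc38a5, Slc43a1 and Slc7a14. A match of these letters is not a binding site, and no match says only that the letters are absent from the window. Only 7 of the 11 called carriers had a promoter entry. Slc1a5 and Slc7a5, called higher, had none and were not searched. The 3 genes called lower with an entry were Slc36a1 and others from among Slc1a1, Slc38a1, Slc43a2 and Slc43a3. Those others held no match, and the rest had no entry and were not searched.

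Both neutral exchangers of the Slc1a family rose. Slc1a4 encodes ASCT1, an exchanger of alanine, serine, cysteine and threonine. It lay at 11.41 and 11.40 in the E79Q libraries, against 10.78 and 10.79 in the wild-type libraries. The genotypes differ by 0.62 ± 0.05 (limma adjusted p = 8.10e-08), the largest difference in the set. The libraries of each genotype almost coincide, but the deposited values were centred by replicate number. The gaps within the genotypes are therefore equal in size and opposite in sign. Normalised counts, back-calculated from the stabilised values, were 1.62-fold those of wild type. Slc1a5 encodes ASCT2, which brings in glutamine in exchange for other neutral amino acids. It stood at 10.99 and 11.02 in E79Q and at 10.70 and 10.68 in wild type, 0.32 ± 0.05 higher (adjusted p = 0.000134, 1.28-fold).

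The acidic carriers of the same family went the other way or were barely present. Slc1a1, also called EAAT3, takes up glutamate, aspartate and cysteine. It measured 10.69 and 10.68 in E79Q and 10.87 and 10.88 in wild type, a fall of 0.19 ± 0.05 (limma adjusted p = 0.00640) to 0.857 of the wild-type count. Its exons overlap those of 4430402I18Rik on the other strand, and no source states whether counting used strand. That gene lay at 7.27 and 7.17 in E79Q and at 7.19 and 7.28 in wild type, near the floor. The glial carriers Slc1a2 and Slc1a3 were too low to test, with values between 7.08 and 7.17 in E79Q and between 7.10 and 7.19 in wild type for Slc1a2, and 7.46 and 7.45 against 7.52 and 7.54 for Slc1a3. Slc1a6, a carrier of Purkinje cells, lay around the floor at 6.95 and 7.01 in E79Q and at 7.07 and 7.01 in wild type, and Slc1a7 had no reads in any library.

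The heavy chain Slc3a2 and its main light chain, Slc7a5, both rose. Slc3a2 encodes 4F2hc, also known as CD98, the partner of Slc7a5, Slc7a6, Slc7a7, Slc7a8, Slc7a10 and Slc7a11. It stood at 13.35 and 13.42 in E79Q, against 12.85 and 12.79 in wild type. Both E79Q libraries lie above both wild-type libraries, by 0.56 ± 0.05 (limma adjusted p = 1.18e-07, 1.5-fold). Slc7a5 encodes LAT1, which exchanges glutamine for leucine and other large neutral amino acids. It measured 13.38 and 13.35 in E79Q and 13.21 and 13.24 in wild type, 0.14 ± 0.04 higher (adjusted p = 0.0193, 1.10-fold). This was the smallest rise called in the set, and without the mean-variance trend it was not called (adjusted p = 0.0749). Whether its rise differs from that of Slc3a2 was not tested. Slc7a6, the light chain y+LAT2, which exchanges arginine for glutamine, lay at 10.17 and 10.25 in E79Q and at 10.27 and 10.20 in wild type. Its groups overlap and it was not called (-0.023 ± 0.06, adjusted p = 0.780).

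The remaining light chains were rare. Slc7a7 (y+LAT1) lay at 7.62 and 7.52 in E79Q and at 7.62 and 7.73 in wild type. Slc7a8 (LAT2) lay at 7.48 and 7.38 in E79Q and at 7.30 and 7.40 in wild type. Neither was tested. The exons of Slc7a7 overlap those of Oxa1l on the other strand, which lay at 9.79 and 9.77 in E79Q and at 9.78 and 9.79 in wild type. Reads counted for Slc7a7 may therefore not be its own alone. Slc7a9, Slc7a10, Slc7a12 and Slc7a13 had no reads in any library, and Slc7a15 lay around the floor, at 6.95 and 7.01 in E79Q and at 7.07 and 7.01 in wild type. The second heavy chain, Slc3a1, which pairs with Slc7a9 in kidney and gut, stood at 7.38 and 7.29 in E79Q and at 7.27 and 7.37 in wild type and was not tested. Its exons overlap those of Prepl on the other strand.

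Per length of transcript, Slc3a2 stood above the light chains of the set in E79Q and below them in wild type, but with Slc7a11 counted the light chains exceeded the heavy chain in all 4 libraries. Normalised counts per kb, with lengths from GENCODE vM21, were 3634 and 3798 for Slc3a2 in E79Q, against 2539 and 2429 in wild type. On the same scale Slc7a5 had 2961 and 2894 in E79Q and 2620 and 2682 in wild type, so Slc3a2 was the first of the set in E79Q and Slc7a5 the first in wild type. The 5 light chains of the set that pair with Slc3a2 summed to 0.886 and 0.833 of the Slc3a2 level in E79Q, and to 1.14 and 1.21 of it in wild type. Slc7a11, which is outside the set, made up most of the difference on the light-chain side. It had 944 and 955 counts per kb in E79Q and 314.2 and 310.6 in wild type. With Slc7a11 counted, the light chains summed to 1.15 and 1.08 of the heavy chain in E79Q and to 1.27 and 1.34 in wild type. Slc7a11 was 22.7% and 23.2% of this sum in E79Q and 9.78% and 9.53% in wild type, and Slc7a5 was 71.1% and 70.2% in E79Q and 81.6% and 82.3% in wild type. These sums are descriptions of 4 libraries and depend on the transcript taken for each length.

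**Figure D2:**
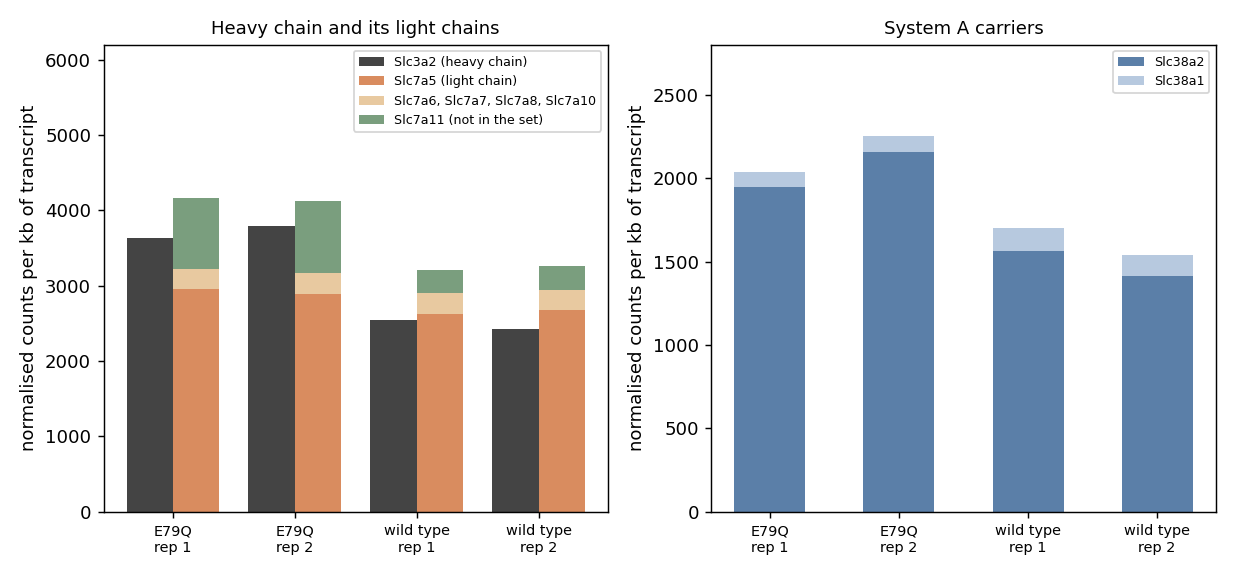
Normalised counts per kb of transcript in each library. Left, the heavy chain Slc3a2 beside the stacked light chains, where the light chains of the set end below the heavy chain in both E79Q libraries and above it in both wild-type libraries. Right, the system A carriers Slc38a2 and Slc38a1 stacked, with Slc38a1 at 4.43% and 4.13% of the pair in E79Q and at 7.91% and 8.49% in wild type.

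Among the cationic carriers, the most abundant one rose. Slc7a1 encodes CAT1, the widespread carrier of arginine, lysine and ornithine. It stood at 13.31 and 13.36 in E79Q and at 13.11 and 13.06 in wild type, with no overlap, a rise of 0.25 ± 0.04 (limma adjusted p = 0.000357, 1.20-fold). Slc7a3 (CAT3), which lies on the X chromosome, lay at 9.86 and 9.73 in E79Q and at 9.81 and 9.93 in wild type, overlapping, and was not called (-0.08 ± 0.07, adjusted p = 0.384). Slc7a4, a relative with no firmly known substrate, lay at 7.95 and 7.96 in E79Q and at 7.99 and 7.98 in wild type (-0.032 ± 0.07, adjusted p = 0.758), and its difference was 0.0048 after quantile normalization. Slc7a2 (CAT2) was under the filter in every library. It lay at 7.26 and 7.23 in E79Q, against 7.48 and 7.51 in wild type, or 5.01 and 3.89 normalised counts against 15.2 and 17.3. These groups do not overlap, but no test was made. The exons of Slc7a2 overlap those of Gm26584 on the other strand, so its reads may not be its own alone. Slc7a14 had no reads in any library.

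The system A carriers, which take up alanine, serine and glutamine with sodium, moved in opposite directions. Slc38a2 (SNAT2) is the system A gene known to be induced when amino acids are short. It measured 13.19 and 13.33 in E79Q and 12.88 and 12.74 in wild type, higher by 0.45 ± 0.06 (limma adjusted p = 1.27e-05, 1.38-fold). The rise was 0.31 in pair 1 and 0.60 in pair 2, the widest gap between pairs among the genes called. Slc38a1 (SNAT1) stood at 9.80 and 9.83 in E79Q, against 10.25 and 10.22 in wild type, a fall of 0.42 ± 0.06 (limma adjusted p = 2.52e-05). This was the largest fall in the set on the deposited log2 scale. Its count was 0.691 of wild type, and among the called genes the counts of Slc43a2 (0.680) and Slc43a3 (0.586) fell further. Per kb, Slc38a1 and Slc38a2 summed to 2039 and 2252 in E79Q and 1699 and 1542 in wild type, with Slc38a2 by far the larger part. The third system A gene, Slc38a4, lay at 7.11 and 7.15 in E79Q and at 7.06 and 7.02 in wild type and was not tested.

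The other Slc38a genes were not called. Slc38a9, the lysosomal carrier that reports arginine to mTORC1, lay at 8.72 and 8.53 in E79Q and at 8.66 and 8.85 in wild type. Its pairs went opposite ways, by 0.063 in pair 1 and by -0.32 in pair 2 (-0.13 ± 0.08, limma adjusted p = 0.237), and it was not called. Fits that left out replicate 1 of either genotype, and with it the replicate block, called it lower by 0.22 (adjusted p = 0.0167 without E79Q replicate 1 and 0.0170 without wild-type replicate 1), with the lone library assumed to vary like the other genotype. Centring makes the difference in these fits the same. Slc38a7, a lysosomal carrier of glutamine and asparagine, stood at 9.59 and 9.54 in E79Q and at 9.47 and 9.51 in wild type, which do not overlap, yet the difference of 0.07 ± 0.06 did not pass (adjusted p = 0.348). Slc38a10 lay at 11.09 and 11.01 in E79Q and at 11.04 and 11.13 in wild type (-0.038 ± 0.05, adjusted p = 0.604), and its exons overlap those of Gm11769 on the other strand. Slc38a6 lay at 7.89 and 7.91 in E79Q and at 7.98 and 7.96 in wild type (-0.07 ± 0.07, adjusted p = 0.487), and it was called lower without the replicate block (adjusted p = 0.0468). The system N gene Slc38a3 was under the filter, at 7.55 and 7.49 in E79Q and 7.56 and 7.61 in wild type, and Slc38a5, Slc38a8 and Slc38a11 had no reads.

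**Figure D3:**
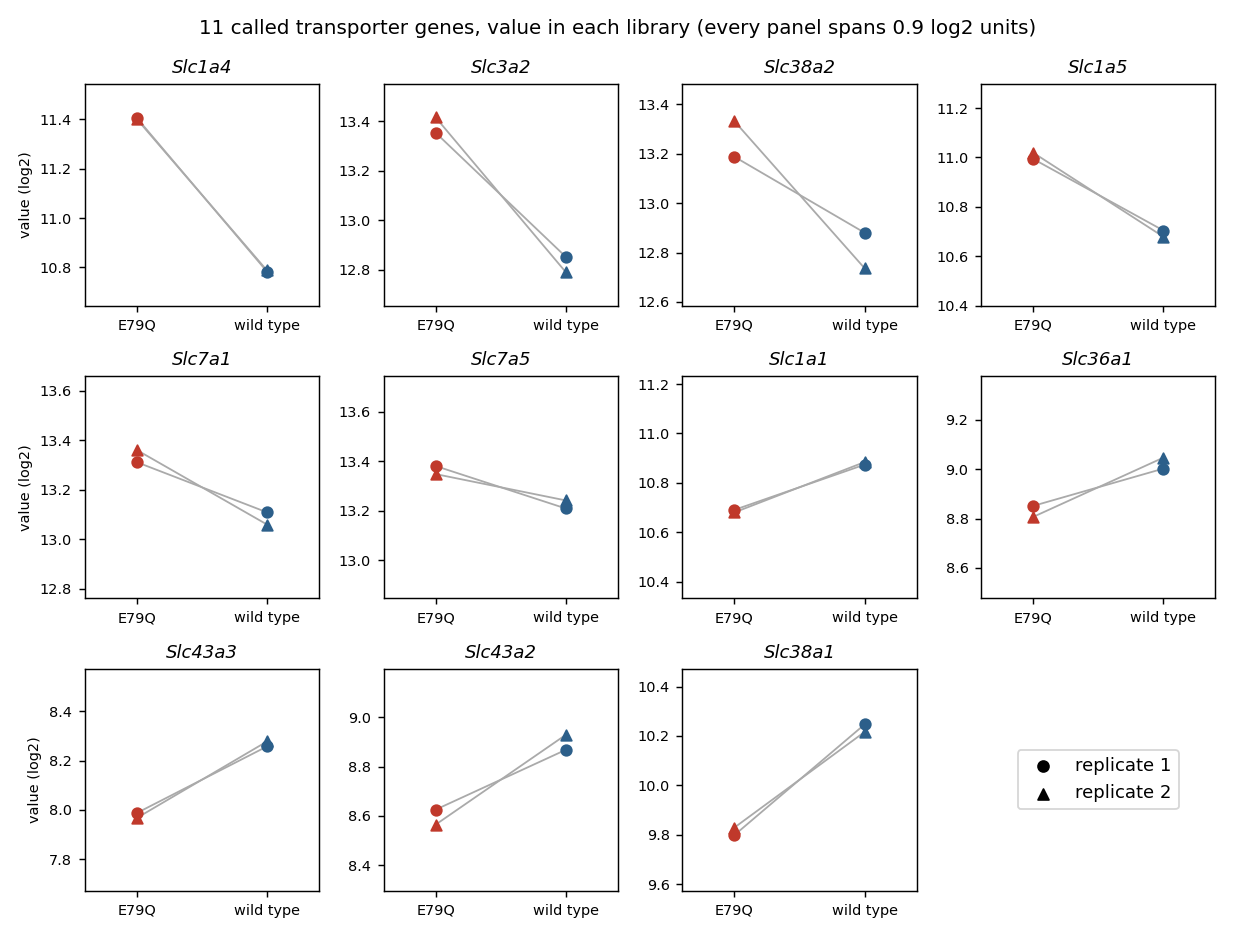
Deposited value (log2) of each of the 11 called carriers in the E79Q and wild-type libraries, with a line joining libraries of the same replicate number. Each panel spans 0.9 log2 units, and the genotypes do not overlap in any panel. The 2 lines of a panel cross at their midpoint, since the deposited values were centred by replicate number.

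The Slc36a and Slc43a carriers held called falls and no called rise. Slc36a1 encodes PAT1, which moves small amino acids with protons across the plasma and lysosomal membranes. It lay at 8.85 and 8.81 in E79Q and at 9.0 and 9.05 in wild type, lower by 0.20 ± 0.07 (limma adjusted p = 0.0270, 0.794 of the wild-type count). This call sits near the threshold, with an adjusted p of 0.0502 when genes were left out only if at the floor in all 4 libraries. Slc36a4 (PAT4) measured 8.07 and 8.11 in E79Q and 8.09 and 8.05 in wild type, overlapping, and was not called (0.020 ± 0.07, adjusted p = 0.858). Slc36a2 lay within 0.14 of the floor in every library and Slc36a3 had no reads.

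Both tested Slc43a genes fell. Slc43a2 encodes LAT4, a carrier of leucine, phenylalanine and methionine. It stood at 8.63 and 8.56 in E79Q and at 8.87 and 8.93 in wild type, a fall of 0.30 ± 0.07 (limma adjusted p = 0.00234) to 0.680 of the wild-type count. Its exons overlap those of Gm45606 on the other strand, so its reads may not be its own alone. Slc43a3, whose product carries purine nucleobases rather than amino acids, stood at 7.99 and 7.97 in E79Q and at 8.26 and 8.28 in wild type, a fall of 0.29 ± 0.07 (adjusted p = 0.00473). Its ratio of normalised counts, 0.586, is the lowest among the called genes, and the deposited scale compresses changes near the floor. Slc43a1 (LAT3) lay at 7.32 and 7.16 in E79Q and at 7.23 and 7.39 in wild type and was not tested.

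The genes called higher were mostly the abundant members of the set. Mean wild-type values of the 6 ran from 10.69 to 13.23 with a median of 12.81, and those of the 5 called lower from 8.27 to 10.88 with a median of 9.02. The ranges overlap. Slc38a10 (11.09, not called) and Slc1a1 (10.88, called lower) lay above Slc1a4 (10.79) and Slc1a5 (10.69), both called higher. Per kb in wild type the order began with Slc7a5, Slc3a2, Slc38a2, Slc7a1 and Slc1a5, all called higher, and Slc1a4 stood at place 8. In E79Q Slc1a4 stood at place 6, above Slc38a10 and Slc1a1. Adjacent places were close in some cases: Slc38a10 had 422 and 396 counts per kb in E79Q and Slc1a1 371 and 368, and in wild type Slc38a10 had 408 and 435 and Slc1a1 430 and 433, which overlap. The 41 carriers together took 3738 and 3760 CPM, taken over normalised counts, in E79Q and 3128 and 3120 in wild type, a ratio of 1.20.

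**Figure D4:**
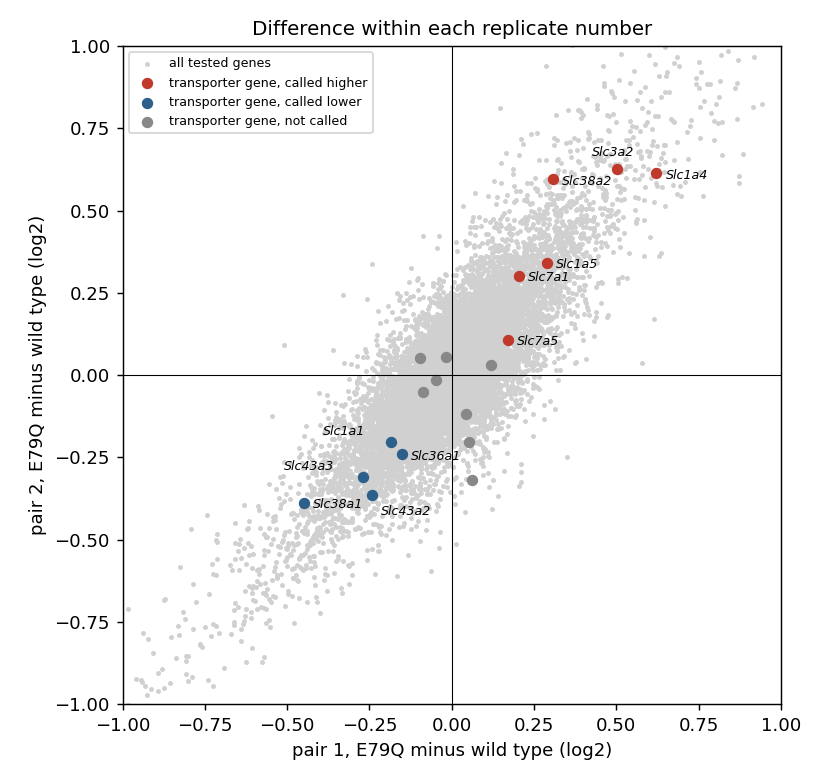
Difference of E79Q from wild type (log2) in pair 1 against pair 2 for all tested genes (light grey) and the 19 tested carriers. Called carriers lie in the upper right or lower left quadrant, and Slc38a2 sits farthest from equal differences among them. The axes stop at 1 each way and leave out 110 tested genes, none of them a carrier of the set.

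Neither opposite-strand gene was called. Slc7a6os, a neighbour of Slc7a6 with no exon overlap in GENCODE vM21, lay at 9.23 and 9.28 in E79Q and at 9.32 and 9.27 in wild type (-0.040 ± 0.06, limma adjusted p = 0.650). Slc36a1os had no reads in any library.

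Carriers of other families, read against the 21.5% of all tested genes called higher and the 18.9% called lower, were called in small numbers in both directions. Of 18 other plasma membrane carriers, 4 were tested, with 1 called higher and 1 lower and a median of 0.069. Slc6a9, the glycine carrier GLYT1, lay at 11.40 and 11.32 in E79Q and at 10.96 and 11.04 in wild type (0.36 ± 0.05, limma adjusted p = 5.55e-05). The X-linked broad carrier Slc6a14 lay at 8.21 and 8.17 in E79Q and at 8.36 and 8.40 in wild type (-0.19 ± 0.07, adjusted p = 0.0413), and it was not called after quantile normalization (adjusted p = 0.0645). Of 8 genes listed as lysosomal carriers, 7 were tested, 0 called higher and 1 lower, with a median of -0.08. That gene, Slc29a3, encodes a nucleoside carrier and no amino acid carrier (-0.30 ± 0.06, adjusted p = 0.00171). Of 12 mitochondrial carriers, 10 were tested, 2 called higher and 2 lower, with a median of -0.038. The aspartate and glutamate exchanger Slc25a12 rose by 0.27 ± 0.06 and the glutamate carrier Slc25a22 by 0.32 ± 0.06 (adjusted p = 0.00150 and 0.000814), while the sideroflexins Sfxn2 and Sfxn3 fell by 0.29 ± 0.07 and 0.24 ± 0.07 (adjusted p = 0.00383 and 0.00877).

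Genes that sense amino acids for mTORC1, the kinase complex that couples nutrients to growth, were called about as often as all tested genes. Of 32 listed genes 31 were matched in the table and 30 tested, 7 called higher (23.3%) and 4 lower (13.3%), with a median of 0.012, against 21.5% and 18.9% of all tested genes. Rragd, a Rag GTPase that recruits mTORC1 to lysosomes, lay at 9.19 and 9.20 in E79Q and at 8.32 and 8.31 in wild type, the largest difference in these lists (0.88 ± 0.07, limma adjusted p = 5.26e-08, 3.09-fold). Folliculin is an activator of Rag GTPases of this kind, and its gene Flcn stood at 9.75 and 9.66 in E79Q and at 9.21 and 9.29 in wild type (0.45 ± 0.06, adjusted p = 3.86e-05). Its partners Fnip1 and Fnip2 rose by 0.66 ± 0.06 and 0.69 ± 0.06 (adjusted p = 1.38e-07 and 4.29e-07). The 4 genes called lower, named after their values were seen, were Sesn1, Sesn3, Gatsl2 (Castor2) and Depdc5, by 0.16 to 0.37. Tsc1, named for the same reason, encodes a known brake on mTORC1 and was called higher, by 0.16 ± 0.06 (adjusted p = 0.0340).

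The response to amino acid shortage runs from the kinase gene Eif2ak4 (GCN2) to ATF4. Of its 11 tested genes, 6 were called higher (54.5%) and 0 lower, against 21.5% and 18.9% of all tested genes. The median was 0.29, against 0.0062 over all tested genes. The list was chosen with earlier results of these data known, so its share is a description and was not tested. The pseudokinase gene Trib3 lay at 12.96 and 12.92 in E79Q and at 12.10 and 12.14 in wild type, Atf3 at 10.94 and 11.15 in E79Q and at 10.48 and 10.27 in wild type, and Ddit3 (CHOP) at 10.71 and 10.75 in E79Q and at 10.21 and 10.17 in wild type. These differences were 0.82 ± 0.05, 0.67 ± 0.07 and 0.54 ± 0.05, and Cebpb rose by 0.46 ± 0.05 (limma adjusted p = 1.43e-09, 2.92e-06, 9.43e-07 and 1.84e-06). Atf4 and Cebpg, named after their values were seen, were also called, so the 6 are 5 transcription factor genes and Trib3. Of the 5 not called, named after their values were seen, Asns, the asparagine synthetase gene, differed by 0.11 ± 0.04 (adjusted p = 0.060) and Chac1 by -0.12 ± 0.05 (adjusted p = 0.063), and Eif2ak4, Eif2s1 and Sesn2 by -0.07 to 0.08.

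**Figure D5:**
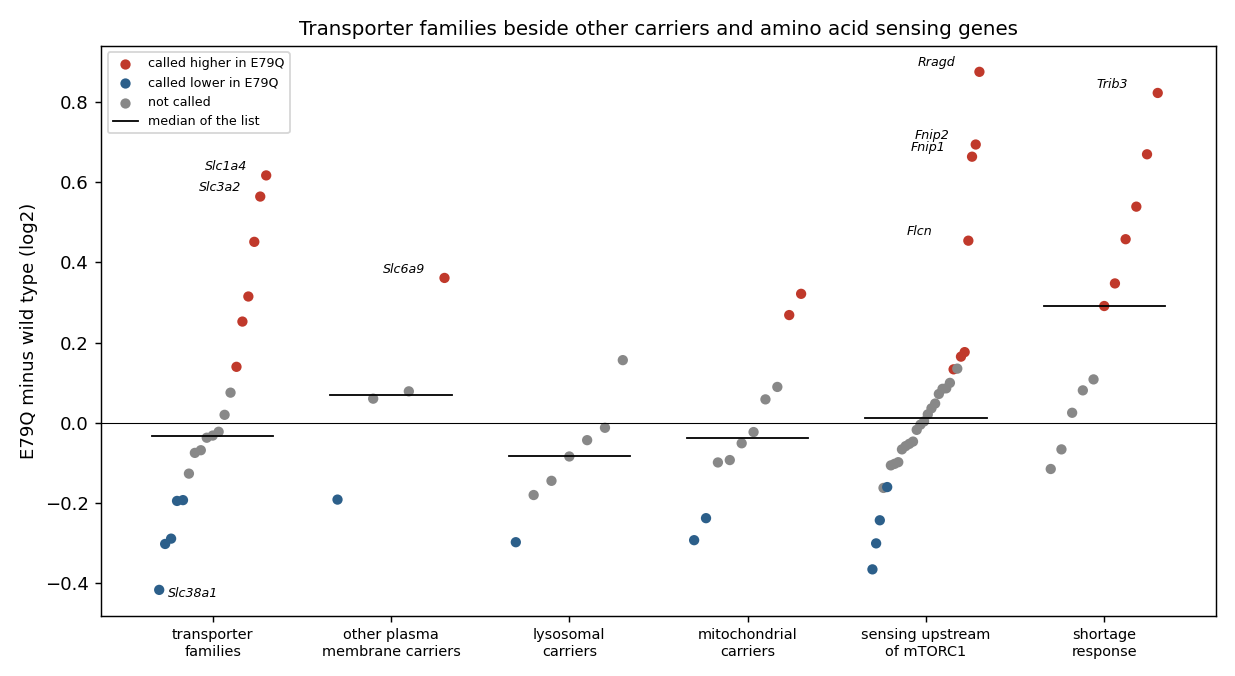
E79Q minus wild type (log2) of each tested gene in the transporter families and in 5 lists of other carriers and sensing genes, with the median of each list as a line. The transporter families spread on both sides of 0 (median -0.032), and the shortage response has the highest median (0.29).

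The estimated depth was 15200000 and 13000000 reads in the E79Q libraries and 14200000 and 12600000 reads in the wild-type libraries, so a gene with no reads in a library may hold up to 0.198 to 0.238 CPM (3 reads, counting error only). Basal keratinocyte markers were abundant in every library, with summed normalised counts of 121167 and 126735 in E79Q and 129212 and 123713 in wild type over 7 genes. Within this list Krt14, Krt15 and Sox2 were called lower, by 0.13, 0.58 and 0.45, and Itga6 higher, by 0.73. The 4 suprabasal markers summed to 1044 and 1074 in E79Q and to 627 and 604 in wild type, with Krt13 higher by 0.49 and Sbsn by 0.78 and Krt4 not called (limma, adjusted p under 0.05 for each call). Other cell types left small sums: 8 fibroblast markers gave 119.9 and 129.3 in E79Q and 417.1 and 422.5 in wild type, carried by Col1a1 with Lum at the floor, and 4 blood cell markers gave 376 and 414 in E79Q and 190.1 and 167.7 in wild type, carried by Cd68 with Ptprc and Adgre1 at the floor. The 4 markers of glia and neurons gave 103.6 and 103.4 in E79Q and 158.8 and 157.1 in wild type, with Tubb3 called lower. Muscle and endothelial sums stayed at or under 27.7. The part of these markers in the transporter values was not tested. Nfe2l2 itself lay at 11.17 and 11.27 in E79Q and 11.38 and 11.27 in wild type, which does not check a substitution. Xist, the RNA of the inactive X chromosome, lay at 7.30 and 7.12 in E79Q and 11.99 and 12.17 in wild type. This difference between the cultures cannot be told apart from the genotype. The X-linked Slc7a3 was not called, while the X-linked Slc6a14, outside the set, was called lower (-0.19 ± 0.07). How either relates to Xist was not tested.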

How the data were processed

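The authors deposited 1 table of variance-stabilised log2 values, 24444 genes in 4 libraries. Per the submitters' processing notes, build mm9 was used with DESeq2, Salmon 0.11.3, DESeq 1.22.2 and STAR 2.5.2b, in an order not recorded. No source used here gives the annotation or the strand setting. Per the labels' protocols, RNA was extracted with TRIzol and made into libraries with an NEBNext Ultra kit. The series' design text describes a human cell line and conflicts with all sample labels, which were followed.

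In every gene, the values of E79Q and wild type add up to the same total in both replicate pairs (within 1.3e-13), so the deposited values are centred by replicate number. The numbers pair the libraries for that reason only. Deviations of same-numbered libraries are exact mirror images, which leaves no residual for a crossed pairing.

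limma 3.58.1 in R 4.3.3 was run on 10857 genes with genotype and a replicate block (1 residual degree of freedom, 14.6 prior), eBayes with trend. A value had to reach 7.90 in 2 libraries. Normalised counts came from inverting a parametric variance stabilisation from the floor. They are approximate after centring, with anything below the floor taken as 0. Depth came from the step of 1 read above the floor. The steps were tested on simulated data. Lengths are of the principal GENCODE vM21 transcript, promoters are RefSeq GRCm38.p6, and neither build is that of the table.

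Members and lists were chosen with earlier results of these data known. Named are all members and the 4 called genes of each other list with the largest absolute difference. Alternatives were no block, other filters, scalings and variance models, and leaving out each library.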

Additional observations from a re-analysis of the deposited data

How the results depend on the processing

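The 6 carriers called higher and 5 called lower kept these counts under median centring, quantile normalization, robust empirical Bayes and without replicate 2 of either genotype, and were 5 and 5 without the mean-variance trend, where Slc7a5 was lost (adjusted p = 0.0749). Without the replicate block the counts were 6 and 6 for the carriers, 3122 and 2882 for all genes (2333 and 2055 with it), 6 and 4 for the other carriers (3 and 4 with it) and 18 and 7 for the sensing and shortage genes (13 and 4 with it). In the set, Slc38a6 was then called lower and no other member changed its call. Outside the set, the mitochondrial carrier gene Sfxn3 was then not called (limma adjusted p = 0.0519). With no filter, limma called 0 genes in either direction, and so 0 carriers, other carriers and sensing genes, although 3942 genes and 7 carriers had an unadjusted p under 0.05. The 8120 genes at the floor in all 4 libraries have no residual, and with them the prior fell to 0.636 degrees of freedom. A filter that leaves out only these, chosen after seeing the data, called 3840 genes and again 6 carriers higher and 5 lower, with Slc36a1 and Slc6a14 lost (adjusted p = 0.0502 and 0.0707) and 1 carrier outside the 19 gained. The stricter filter left 3 carriers lower and 2 other carriers lower, since fewer low genes were tested. Leaving out 1 library also drops the replicate block, since 1 pair leaves no residual for it, and assumes that the lone library varies like the other genotype. Centring has removed the difference between replicate numbers, which any fit without the block treats as still present. Centring also used all 4 libraries, so leaving out either library of a replicate number gives the same differences. Fits that leave out a library are therefore not independent checks of the calls. These fits gave 6 carriers higher and 5 to 6 lower, among 2617 to 2924 genes higher and 2391 to 2544 lower, which lie between the counts of all 4 libraries with and without the block. Directions turned only in genes not called: Slc7a4 (0.0048 after quantile normalization), Slc38a10 (-0.078 to 0.0030 when a library was left out) and Slc7a6 (-0.060 to 0.014). More genes were higher than lower in the table as deposited, but 2048 were higher and 2313 lower after median centring. The inferred depth of 12600000 to 15200000 reads limits the 12 carriers above the floor that were not tested, whose values end at 7.73.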
